A study of Mus musculus with 2 samples.

Results

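Nfkbia, Saa3, Mbl2 and Il1rl1 are 4 genes of the NF-kappaB pathway and of innate inflammation that were measured in primary mouse osteoblasts, the cells that form bone, with and without TGF-beta1, a growth factor that bone matrix keeps in store. They were found on the array by gene name or RefSeq identifier, each on 1 of the 3757 probes, and were selected on the ratio of their treated to untreated intensity. The values of the 4 probes are therefore a description and support nothing by themselves. The untreated group was 1 culture of primary murine osteoblastic cells, starved of serum in alphaMEM medium (0.2% FBS). The TGF-beta1 group was 1 culture kept the same way that received TGF-beta1 at 2 ng/ml and was taken after 24 h. Each culture gave total RNA for 1 array, so there was no replicate and no test, and every difference is one between these 2 arrays. The strain, the age of the donors and the number of animals behind a culture are not stated in the labels used here. In bulk RNA, fewer cells of a type and less RNA per cell cannot be told apart.

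NF-kappaB is a family of transcription factors that switch on genes of inflammation, cell survival and immune defence. In resting cells inhibitor proteins hold it in the cytoplasm, and Nfkbia encodes the best known of them, I-kappaB-alpha. Signals from Toll-like receptors, interleukin 1 receptors and tumour necrosis factor receptors lead to the destruction of the inhibitor. NF-kappaB then enters the nucleus and also activates Nfkbia itself, which closes a feedback loop. Saa3 encodes an acute-phase serum amyloid A protein that in the mouse is made largely outside the liver, for instance in macrophages and fat cells. Mbl2 encodes mannose-binding lectin C, a collectin that recognises sugars on microbes and starts the lectin pathway of complement, and its main known source is the liver. Il1rl1, printed as lymphocyte antigen 84 on this array and also known as ST2, encodes a receptor of the interleukin 1 receptor family that binds interleukin 33. It is known from mast cells and T helper type 2 cells, and from fibroblasts that respond to serum. In bone, NF-kappaB signalling is best known for its part in osteoclast formation.

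The promoter windows below show the letters in front of the genes whose signals differ, since the regulation of Nfkbia and Saa3 by NF-kappaB is part of what they are known for. The probe of each gene measures its transcript and not its promoter. The windows come from RefSeq on build GRCm38.p6 and hold 300 bases around a transcript start, most of them before it, written 5′ to 3′ on the strand of the gene. Capitals mark matches on either strand to 4 motifs, which were the NF-kappaB consensus of 10 bases, the shorter kappaB-like form GGNNTTTCC, the C/EBP-like form TTNNGCAA and the Smad box CAGAC. Of 32841 windows in the table, 8.46% held the consensus, 5.83% the kappaB-like form, 10.8% the C/EBP-like form and 49.6% the Smad box. A match is a description of letters and not a binding site. Nfkbia lies at chr12:55492598-55492897 on the minus strand, Saa3 at chr7:46715627-46715926 on the minus strand and Saa2 at chr7:46751583-46751882 on the plus strand. Il1rl1 has 2 starts in the table, 10059 bases apart, at chr1:40429320-40429619 and chr1:40439379-40439678, both on the plus strand. Saa2 is shown because its signal differed in the other direction from that of Saa3.
Nfkbia: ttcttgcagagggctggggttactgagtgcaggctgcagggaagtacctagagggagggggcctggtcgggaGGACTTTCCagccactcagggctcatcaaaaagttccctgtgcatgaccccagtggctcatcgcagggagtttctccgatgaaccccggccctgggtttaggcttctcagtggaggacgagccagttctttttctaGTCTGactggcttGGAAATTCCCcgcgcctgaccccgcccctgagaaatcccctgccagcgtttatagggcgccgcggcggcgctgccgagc
Saa3: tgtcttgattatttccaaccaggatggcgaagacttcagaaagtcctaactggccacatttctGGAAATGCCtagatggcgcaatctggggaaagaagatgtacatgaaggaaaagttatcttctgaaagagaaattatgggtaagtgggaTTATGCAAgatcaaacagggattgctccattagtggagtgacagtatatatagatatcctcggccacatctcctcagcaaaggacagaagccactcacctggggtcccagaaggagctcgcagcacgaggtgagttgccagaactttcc
Saa2: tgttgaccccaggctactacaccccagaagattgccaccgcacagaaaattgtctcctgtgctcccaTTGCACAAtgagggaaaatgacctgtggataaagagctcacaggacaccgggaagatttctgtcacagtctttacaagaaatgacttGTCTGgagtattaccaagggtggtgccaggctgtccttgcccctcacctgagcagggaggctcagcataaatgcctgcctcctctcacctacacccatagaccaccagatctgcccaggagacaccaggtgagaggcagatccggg
Il1rl1 start 1: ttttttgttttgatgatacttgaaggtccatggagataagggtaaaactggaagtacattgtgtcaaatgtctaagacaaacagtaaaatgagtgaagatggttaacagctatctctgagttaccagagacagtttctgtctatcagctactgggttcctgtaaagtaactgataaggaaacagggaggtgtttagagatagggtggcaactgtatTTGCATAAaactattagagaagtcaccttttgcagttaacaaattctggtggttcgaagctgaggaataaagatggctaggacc
Il1rl1 start 2: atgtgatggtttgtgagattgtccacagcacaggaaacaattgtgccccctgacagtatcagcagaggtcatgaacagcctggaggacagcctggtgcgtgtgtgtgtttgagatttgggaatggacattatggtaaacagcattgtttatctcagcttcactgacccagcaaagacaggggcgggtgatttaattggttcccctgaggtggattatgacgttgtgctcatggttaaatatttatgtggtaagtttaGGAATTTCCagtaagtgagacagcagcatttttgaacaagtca
Counted from the transcript start, the Nfkbia window held a kappaB-like match at -178 and another at -29. The match at -29 overlaps the only match to the longer consensus among these windows. A Smad box stood at -42 in the same window. The Saa3 window held a kappaB-like match at -187 and a C/EBP-like match at -99. The Saa1 and Saa2 windows held no match to the kappaB-like form as written, and each held 1 C/EBP-like match and 1 Smad box. A window without a match to such a fixed pattern may still hold a site, so an absent match is not an absent site. The window of Saa1 was 95.35% identical to that of Saa2, and that of Saa3 was 50.15% identical to that of Saa2 over a global alignment. The first Il1rl1 window held a C/EBP-like match at -34 and the second a kappaB-like match at 8, inside the transcript. No match to the 4 motifs was found in the Mbl2 window. The Il1rl1 signal cannot be divided between the 2 starts with the values used here.

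The deposited intensities had been globally normalized, so sums that lie close together do not measure the depth of the raw signal. The summed intensity was 427889 on the untreated and 431093 on the treated array, and 924 and 866 probes exceeded the authors' signal threshold of 87.4, which equals the brightest lambda phage spot, a negative control. Such probes are called detected. Both arrays had 795 probes above it, 129 exceeded it on the untreated array only and 71 on the treated array only. The 8 lambda spots gave log2 ratios with an SD of 0.20. This is a rough scale for the scatter of single dim spots and not an error of any gene. Over the 795 probes above the threshold on both arrays the SD of the log2 ratios was 0.44. Of 8 osteoblast markers on the array 4 were detected on both arrays and 2 without TGF-beta1 only. Of the 4, 1 was higher and 3 were lower with TGF-beta1, where 46.8% of all probes detected on both arrays were lower. The median log2 ratio of the 4 was -0.03. Col1a2 and Bglap, at -0.05 and -0.01, were lower by less than the SD of 0.20 of the lambda spots. The summed signal of all 8 markers went from 3565 to 2992. Col1a2 of type I collagen had 1174 and 1132 and osteocalcin, Bglap, had 846 and 840, while bone sialoprotein, Ibsp, had 240 and 47.9, at least 2.74-fold lower. Sparc had 946 and 631, a log2 ratio of -0.58 that was 0.14 after subtraction of the neighbours' median. Cdh11 had 142 and 83.2, at least 1.62-fold lower, and Alpl had 94.1 and 124, a log2 ratio of 0.39. Collagen and osteocalcin were clear of the threshold on both arrays and bone sialoprotein on the untreated one alone. The part of the marker differences in the 4 genes was not tested.

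Nfkbia and Saa3 had lower signals with TGF-beta1, and Mbl2 and Il1rl1 had higher ones. Nfkbia had an intensity of 278 untreated and 123 with TGF-beta1. Saa3 had 148 untreated and 58.5 with TGF-beta1. Mbl2 had 88.3 untreated and 194 treated. Il1rl1 had 2056 untreated and 3780 treated, so the direction was down for the inhibitor and the acute-phase gene and up for the lectin and the receptor. Intensities of different probes do not rank transcript amounts, since each probe has its own yield of signal.

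**Figure D1:**
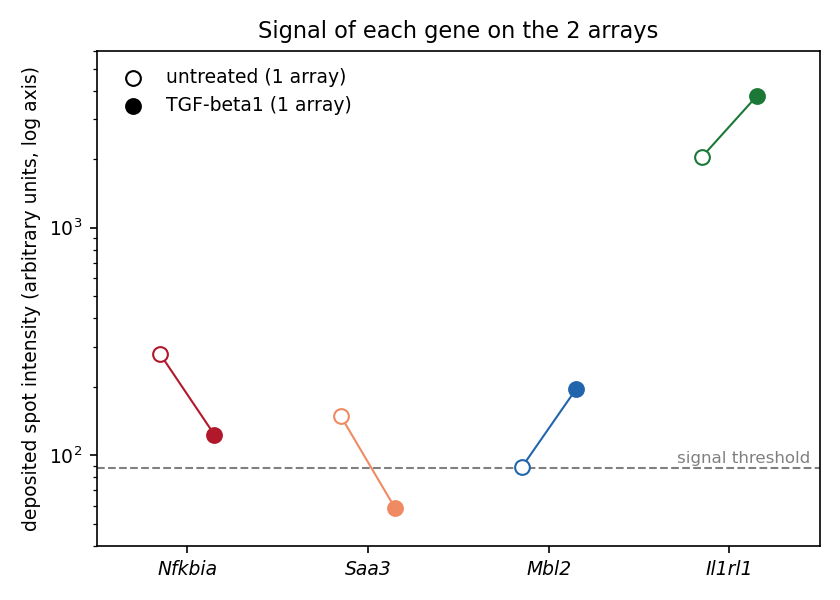
Deposited spot intensity (arbitrary units, log axis) of Nfkbia, Saa3, Mbl2 and Il1rl1 on the untreated array (open points) and the TGF-beta1 array (filled points), 1 array each, with the signal threshold of 87.4 as a dashed line. Saa3 crosses the threshold downwards, Mbl2 starts at 88.3 just above it, and Nfkbia and Il1rl1 stay above it on both arrays.

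The treated signal of Nfkbia was 44.2% of the untreated one, a log2 ratio of -1.18 or 2.26-fold lower. Both signals stood clear of the threshold, at 3.18 and 1.41 times its value. Among 795 probes detected on both arrays, 18 were at least 2-fold lower, which is 2.26%, and 30 were at least 2-fold apart either way, which is 3.77%. At 1.5-fold 8.18% were lower and 15.3% were apart either way. Nfkbia ranked 9 from the lowest ratio. Since the gene was picked for this contrast, nothing is read from that share or from its ranks. Nfkbia had the lowest log2 ratio of the 25 detected probes in its own block of the array, K4, where 11 were higher and 14 lower.

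Saa3 was detected without TGF-beta1 only, so its fold has a lower bound. The measured log2 ratio was -1.34, a treated signal 39.5% of the untreated one. Against the dimmest detected signal of the treated array, Saa3 was at least 1.69-fold lower. Of the 129 probes in the same state, 19 had a bound of at least 1.5-fold, which is 14.7%, and 2.33% had one of at least 2-fold. The treated signal of Saa3 was not set apart from the control spots, so its measured ratio is not ranked among other probes.

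Mbl2 had a log2 ratio of 1.14, or 2.20-fold higher on the treated array. Its untreated signal of 88.3 was close to the threshold of 87.4, so that signal barely exceeds the brightest control spot. Among the 795 probes 12 were at least 2-fold higher, which is 1.51%, and Mbl2 ranked 6 from the highest. Mbl2 was selected on its ratio, so nothing is read from its ranks. It had the highest log2 ratio of 29 detected probes in block I1, a block where 23 were higher and 6 lower. The block as a whole thus leaned in the direction of Mbl2, with a median log2 ratio of 0.24. After subtraction of that median the log2 ratio of Mbl2 was 0.90, under 2-fold.

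Il1rl1 had a log2 ratio of 0.88, or 1.84-fold higher, with signals of 23.5 and 43.2 times the threshold. It passed 1.5-fold, as did 57 of 795 probes in the higher direction, which is 7.17%, and ranked 22 from the highest. Il1rl1 was selected on its ratio, so nothing is read from its ranks. Among the 53 probes with intensities above 1000 on both arrays, a limit chosen after the values were seen, Il1rl1 had the highest log2 ratio. Of these bright probes 35 were higher and 18 lower, with a median log2 ratio of 0.19 and a range from -0.70 to 0.88. Bright probes thus leaned upward on the treated array, and after loess on signal the log2 ratio of Il1rl1 was 0.66. The brightest probe of the treated array reached 4652, so Il1rl1 was not at the top of the measured range.

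**Figure D2:**
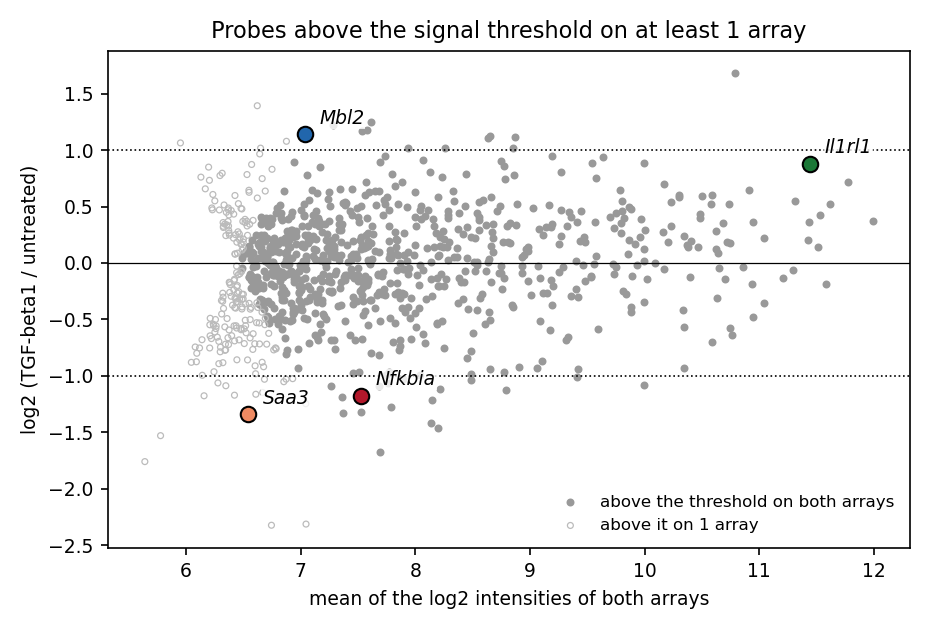
Log2 ratio of the TGF-beta1 over the untreated intensity against the mean log2 intensity of both arrays for the 995 detected probes (filled where detected on both arrays, open on 1), with dotted lines at 2-fold. Nfkbia lies under the lower line at -1.18, Saa3 has a measured ratio of -1.34 that rests on a treated signal under the threshold, Mbl2 lies above the upper one at 1.14, and Il1rl1 lies at 0.88 among the brightest probes.

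Close relatives of the 4 genes were measured on the same arrays and mostly differed less or in the other direction. The 4 were selected on their ratios, so smaller ratios among their relatives are no sign of a difference particular to the 4. For the inhibitors of NF-kappaB, Nfkbil1, named for its likeness to I-kappaB, went from 421 to 339, which is -0.31 in log2 ratio. Its spot lies next to that of Nfkbia. Nfkbie, which encodes I-kappaB-epsilon, had 68.3 and 72.4 and was under the threshold on both arrays. Ikbke, a kinase related to those that mark the inhibitors for destruction, had 196 and 181, a log2 ratio of -0.11 that turned to 0.011 after subtraction of the median of block K4. The ratios of these relatives were smaller in size than that of Nfkbia, which was selected on its ratio. Of all probes detected on both arrays 3.77% were at least 2-fold apart either way.

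The serum amyloid A genes, which lie close together on chromosome 7, were split. Saa1 had 140 untreated and 200 treated, which is 0.51 in log2 ratio. Saa2 went from 122 to 189, which is 0.63. Saa4, the constitutive member of the family, went from 295 to 327, which is 0.15. These 3 relatives were higher on the treated array while Saa3 was lower, and each kept its direction after quantile, loess, offset, block and neighbour adjustments. Saa1 and Saa2 are near-identical genes, and whether their probes tell them apart was not tested. Each of the 3 stood on its own spot, in block K1 for Saa1 and Saa2 and in L1 for Saa4, away from Saa3 in C1.

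The lectin pathway showed a similar contrast between neighbours. Mbl1, the mannose-binding lectin A gene, went from 757 to 676, which is -0.16 in log2 ratio, on the spot next to Mbl2. Masp2, the protease that lectin complexes use to cleave complement, had 408 and 466, a log2 ratio of 0.19. Masp1, its sister protease, had 33.1 and 38.2 and was under the threshold on both arrays. Of these 4 probes only Mbl2, which was selected on its ratio, was at least 2-fold apart between the arrays. Of all probes detected on both arrays 3.77% were that far apart. After subtraction of the block median Mbl2 was under 2-fold as well.

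In the interleukin 1 receptor family, 2 receptors were above the threshold, Il18r1 and Il1rl1, which was selected on its ratio. Of all probes detected on both arrays 53.2% were higher with TGF-beta1. Il18r1, the interleukin 18 receptor chain that the file names interleukin 1 receptor related protein, was higher, with 239 untreated and 359 treated. Its log2 ratio was 0.59, and Il18r1 is the gene next to Il1rl1 on chromosome 1. The next gene but one, Il18rap, the partner chain of the interleukin 18 receptor, had 39.6 and 45.8, under the threshold on both arrays. Il1rap, the accessory chain that Il1rl1 needs to signal, had 65.9 and 84.3 and was also under it. Irak1, the kinase that carries the signal of these receptors, went from 260 to 209, which is -0.31, and the adaptor Myd88 had 105 on both arrays.

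**Figure D3:**
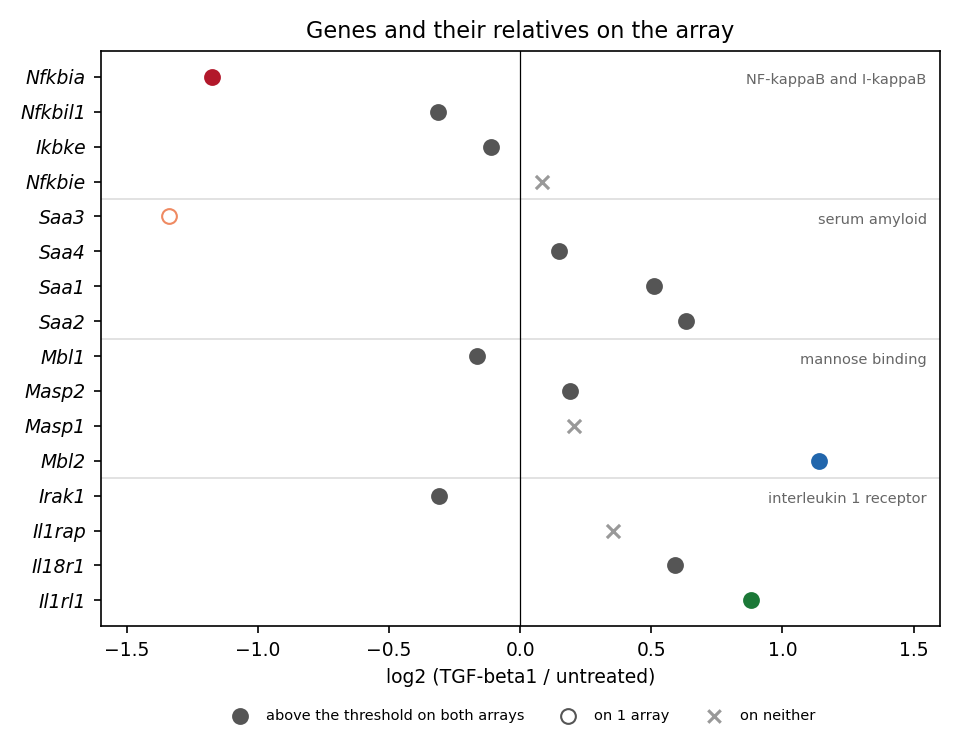
Log2 ratio of the TGF-beta1 over the untreated intensity for Nfkbia, Saa3, Mbl2, Il1rl1 (coloured) and the probes whose names in the file place them in the same families (grey), by state against the signal threshold. Saa3 at -1.34 stands opposite Saa1, Saa2 and Saa4 at 0.51, 0.63 and 0.15, and Mbl2 at 1.14 stands opposite Mbl1 at -0.16.

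The wider pathways were followed in gene lists of textbook members, chosen with earlier results of these data known. Over all 995 detected probes, 494 were higher and 501 lower, which is 49.6% and 50.4%, and the median log2 ratio was -0.01. Of the 795 detected on both arrays 53.2% were higher and 46.8% lower. A gene detected on 1 array only had its direction set by that, so the counts of each list rest on genes detected on both arrays, without Nfkbia, Saa3, Mbl2 and Il1rl1. Of the NF-kappaB pathway list, 11 of 40 genes stood on the array and 2 were detected. These were Nfkbia, which was selected on its ratio, and Ikbke, which was lower with a log2 ratio of -0.11. The other 9, among them Chuk, a kinase of the inhibitor, and the adaptors Traf1, Traf5 and Traf6, gave signals between 17.7 and 72.4. The pathway list thus held little beyond Nfkbia that could be compared.

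Of known NF-kappaB target genes, 21 of 44 were on the array and 7 were detected, 5 of them on both arrays. Of these 5, 4 were lower and 1 was higher, where 46.8% of all probes detected on both arrays were lower. The median log2 ratio of the 5 was -0.53. Fth1, the heavy chain of ferritin, had 438 untreated and 202 treated, 2.17-fold lower. Gadd45b, a stress-response gene that restrains cell death signalling, had 312 and 211, a log2 ratio of -0.57, which was 0.11 after subtraction of the median of 3 neighbouring spots. B2m, whose protein pairs with MHC class I chains, went from 350 to 242, which is -0.53. Fth1 was the only one of the 5 targets above the threshold on both arrays that passed 2-fold, and its log2 ratio was -0.99 after subtraction of the block median. The chemokine Ccl2 had 90.9 and 64.2, at least 1.04-fold lower, and the chemokine Cxcl5 had 429 and 380, a log2 ratio of -0.17. Ccl5, a chemokine that draws T cells, had 520 and 647, a log2 ratio of 0.32, and was the target that was higher. The other 14 targets on the array, Tnf, Ptgs2, Cxcl1 and Sod2 among them, were under the threshold on both arrays. Over all 21 targets on the array, Saa3 included, under the threshold or not, the median log2 ratio was -0.20.

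Of 14 acute-phase genes on the array 8 were detected, Saa3 and 7 that were detected on both arrays. Of these 7, 6 were higher and 1 was lower, where 53.2% of all probes detected on both arrays were higher. The median log2 ratio of the 7 was 0.18, and none passed 2-fold. That median is smaller than the SD of 0.20 of the lambda spots, which is a scale for single spots and not for a median. Over all 14 genes, under the threshold or not, the median was 0.082. Saa2 and Saa1 had the highest ratios among the detected, and whether their probes measure separate transcripts was not tested. Itih3, a serum protein that stabilises hyaluronan, had a log2 ratio of 0.22, and this turned to -0.07 after subtraction of the neighbours' median. Orm1, the acute-phase protein orosomucoid, had 482 and 532, and Mt1, a metal-binding metallothionein, had 774 and 708.

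Of the complement and collectin list 23 genes were on the array and 8 were detected, 6 of them on both arrays. Beside Mbl2 these were 3 higher, Cfd, C1qb and Masp2, and 2 lower, C1qbp and Mbl1, with a median log2 ratio of 0.17. Of all probes detected on both arrays 53.2% were higher. C4b, the complement component cleaved by the lectin pathway, had 70.7 and 90.6, at least 1.04-fold higher. Cd46, a regulator that protects cells from complement, had 85.2 and 101, at least 1.15-fold higher. Over all 8 detected genes the median was 0.19, and it turned to -0.13 after subtraction of neighbour medians. C4b and Masp2 kept their direction after both adjustments for position, while Cd46 turned to -0.22 and C1qb, a chain of the first complement component with 184 and 208, turned to -0.33 after subtraction of neighbours. Cfd, complement factor D, had 0.18 and turned to -0.04 in the same way. Of the interleukin 1 list 4 of 10 genes on the array were detected, all on both arrays. Without Il1rl1 these were Il18r1 higher, Irak1 lower and Myd88 at 0.0011, which is also their median log2 ratio. None of the 12 genes of Toll-like receptors and innate sensing on the array was above the threshold, with signals from 5.22 to 84.8.

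**Figure D4:**
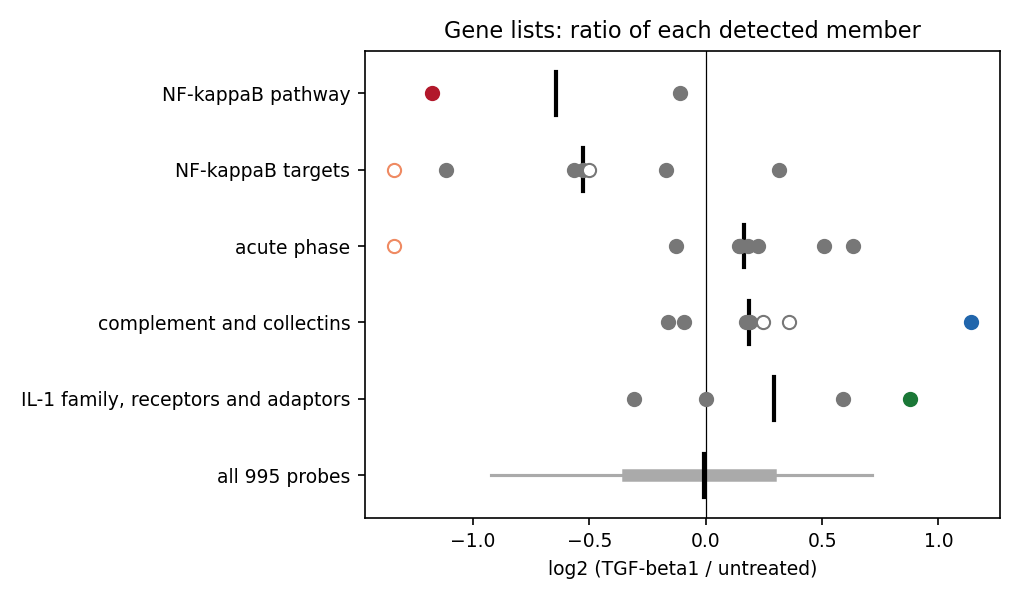
Log2 ratio of the TGF-beta1 over the untreated intensity for each detected member of 5 gene lists (filled where detected on both arrays, open on 1, Nfkbia, Saa3, Mbl2 and Il1rl1 in colour) with the list median as a black bar. The list medians include these 4 genes. The bottom line gives the median, the middle 50% (thick) and the middle 90% (thin) of all 995 detected probes. Of 5 NF-kappaB targets detected on both arrays 4 lie to the left of 0, Fth1 furthest, and Ccl5 lies to the right. Of all probes detected on both arrays 46.8% were lower.

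Markers of cells in which the 4 genes are known were measured beside them. For mast cells and basophils 2 of 6 markers on the array were detected, the protease Mcpt1 at 1422 untreated and 2041 treated and Ms4a2 at 216 and 437. The name in the file beside the Ms4a2 probe reads member 1 of the family, so its identity is uncertain. The summed signal of the 6 mast cell and basophil probes went from 1837 to 2661, in the same direction as Il1rl1. That rests on Mcpt1 and Ms4a2, since the sum of the other 4 went from 199 to 183. The defining receptor chain Fcer1a had 69.2 and 44.8 and the carboxypeptidase Cpa3 31.4 and 24.3, both under the threshold.

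For T lymphocytes 1 of 5 markers was detected, the kinase Zap70 at 2440 and 3131. The chains Cd3d, Cd3e and Cd3g were under the threshold. The sum of the 5 went from 2631 to 3358, and without Zap70 from 191 to 227. For macrophages 1 of 6 was detected, the adaptor Tyrobp at 481 and 687, while Ptprc, which encodes the leukocyte antigen CD45, had 43.4 and 28.1. The sum of the 6 went from 645 to 841, and without Tyrobp from 163 to 155. Marker counts and sums cover only probes matched to a symbol. A probe named CD68 antigen, a further macrophage marker, had no match and is outside them. It had 39.1 and 36.2, under the threshold on both arrays. For hepatocytes none of 5 was detected, with signals from 18.9 to 67.9, and none of 7 neutrophil or 3 osteoclast markers was. Their sums went from 207 to 170, from 296 to 268 and from 133 to 142. For adipocytes 1 of 3 was detected, Cfd at 294 and 334, with a sum from 344 to 371, and for B lymphocytes 1 of 3, Cd79b, on the treated array only, with a sum from 155 to 165. No marker probe was at 0. The part of other cells in the signals of the 4 genes was not tested, and neither was the specificity of the probes.

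The genes whose pair of signals was most like each of the 4 were found by distance in log2 signal over the 2 arrays. For Nfkbia these were Svs6, a seminal vesicle protein gene, and the ribosomal protein gene Rps18, at distances of 0.15 and 0.17. For Saa3 they were the vesicle fusion gene Vamp8 at 0.16 and the glutathione transferase gene Gstm6 at 0.21, both detected without TGF-beta1 only. For Mbl2 they were Dgke, a lipid kinase gene, at 0.047 and Cetn2, a centriole gene, at 0.22. For Il1rl1 the transcription factor genes Ovol1 and Foxd3 were nearest, at 0.30 and 0.34, with log2 ratios of 0.55 and 0.42 that were smaller than its own.

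Each of the 4 genes kept its direction under all 8 ways of scaling the arrays, but not always its size. The 8 include the deposited values on which the genes were selected, and an offset cannot turn a sign. Division by the median or by total signal gave -1.17 and -1.19 for Nfkbia, almost the deposited ratio. The counts out of 8 are therefore not counts of independent checks. Nfkbia ran from -1.72 after subtraction of the median of 9 neighbouring spots to -0.77 with an offset of 96.7 added to every signal. Saa3 ran from -1.35 to -0.66 with that offset. Nfkbia was at least 2-fold lower under 7 of 8 ways, and for Saa3, whose treated signal was under the threshold, the bound of 1.69-fold does not reach 2-fold. Mbl2 ran from 0.65 to 1.20 and was at least 2-fold higher under 5 of 8. Il1rl1 ran from 0.66 to 1.47 and passed 2-fold under 1, the subtraction of its neighbours, which rested on 1 detected spot.

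The detected spots around each gene on the array gave the following ratios. The 9 detected neighbours of Nfkbia had log2 ratios from -0.32 to 1.11, a median of 0.54 against its own -1.18. The 6 around Saa3 ran from -0.68 to 0.20 with a median of -0.30. Saa3 is not ranked among them, since its treated signal was under the threshold. The 11 around Mbl2 ran from -0.16 to 0.78 with a median of 0.28, and Mbl2 lay above all of them. Since Mbl2 was selected on its ratio, nothing is read from that place.

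**Figure D5:**
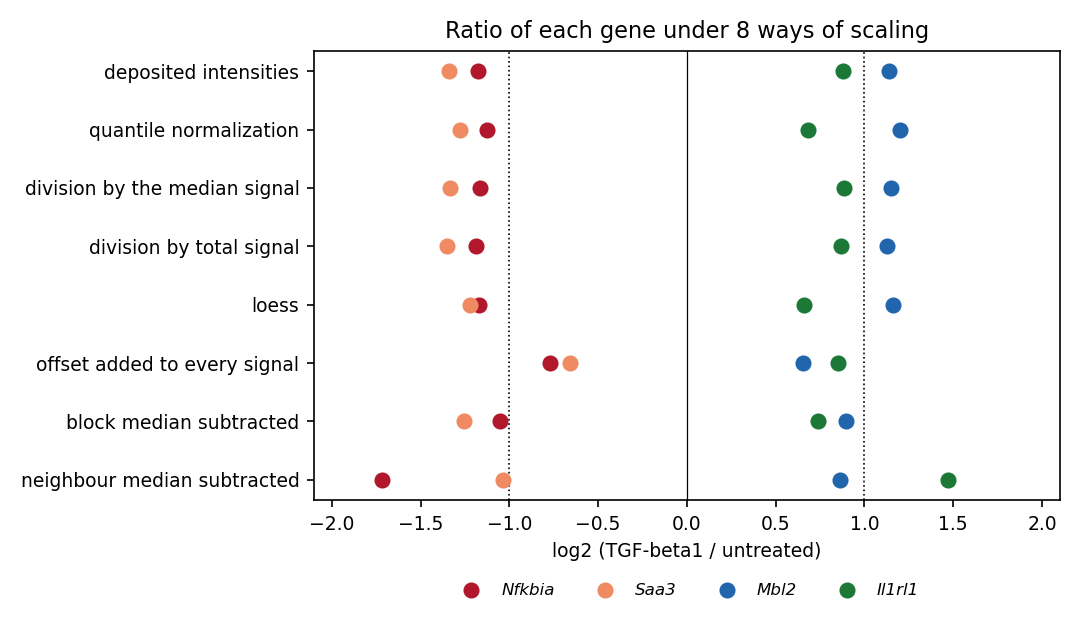
Log2 ratio of the TGF-beta1 over the untreated intensity of Nfkbia, Saa3, Mbl2 and Il1rl1 under the deposited intensities and 7 other ways of scaling, with dotted lines at 2-fold. No point crosses 0, the offset draws Nfkbia, Saa3 and Mbl2 inward to -0.77, -0.66 and 0.65, and the subtraction of neighbour medians moves Nfkbia to -1.72 and Il1rl1 to 1.47.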

How the data were processed

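Total RNA of 1 untreated and 1 TGF-beta1 culture was labelled with Cy3, per the labels' protocols, and each sample stood on 1 array of 1 colour. The deposited values were linear spot intensities with global normalization, per the file headers of an Atlas Iris 1.01 workbook for the Atlas Glass Mouse 3.8 array. How background was estimated is not given in the sources used here. The authors' deposited ratio, treated over untreated intensity, matched the quotient of the intensities within 0.0001 for 3754 of 3754 probes, and 3 further probes had no deposited ratio. Probe identifiers were paired with gene names through 3774 spots whose ratios were equal, in the same order, in the ratio file and the workbook. The 17 control spots without an identifier were left out. In the workbook 16 columns of per-sample values could not be tied to a sample by name and were not used.

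Differences are log2 values of the deposited treated over untreated intensity, with nothing added. A probe above the authors' threshold was taken as detected. For a gene detected on 1 array, the fold has a lower bound, for which its dim signal was raised to the dimmest detected signal of that array where it lay below it. Symbols came from unversioned accessions and a RefSeq table of GRCm38.p6, with 3597 of 3757 probes matched, and the files name no build. The genes and lists were chosen with earlier results of these data known. Genes named were the 4, up to 4 detected members per list with the largest absolute log2 ratio, the 2 nearest probes in log2 signal and probes sharing a family name. Other genes named were chosen after their values were seen, as were the motifs. The number of arrays limits the precision. Neighbours were detected probes within 2 rows and 2 columns in the same block, loess had a span of 0.4, and the calculations were tested on simulated data. Python 3.11.15, numpy 2.4.6, pandas 2.3.3 and statsmodels 0.14.6 were used.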

Additional observations from a re-analysis of the deposited data

How the results depend on the processing

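No paired analysis was possible because each group held 1 sample, and for the same reason no replicate could be left out. Of 110 alternative values 13 could not move by their construction, such as the authors' ratio, which is the same quotient. Of the other 97, 27 moved by more than the SD of 0.20 of the lambda spots for log2 ratios or 1.5 times for counts, and none of the 4 genes changed direction. With the offset the log2 ratios became -0.77 for Nfkbia, -0.66 for Saa3 and 0.65 for Mbl2, the NF-kappaB pathway median became -0.42, and the counts of 12 higher and 18 lower probes became 1 and 3. An offset by its construction draws ratios of dim probes toward 0. The list medians in this section are over detected genes unless stated otherwise, with the 4 genes left in. The NF-kappaB pathway list had 2 detected genes, Nfkbia and Ikbke. With neighbour medians subtracted the values were -1.72 for Nfkbia, -1.04 for Saa3, 0.86 for Mbl2 and 1.47 for Il1rl1, 23 probes were higher, and the medians were -0.85 for the NF-kappaB pathway and -0.13 for complement and collectins. With block medians subtracted Mbl2 had 0.90, and with loess Il1rl1 had 0.66. Where no filter was set on dim probes, 23 were higher and 202 lower, and 34 were lower among probes above the threshold on at least 1 array. With 2 times the threshold on both arrays 6 were higher and 7 lower, and 1 of the 4 genes, Il1rl1, was above it on both arrays instead of 3. At 1.5-fold 57 were higher and 65 lower, and at 3-fold 1 and 1. Over all genes on the array, Nfkbia and Saa3 included, the medians were -0.096 for the NF-kappaB pathway and -0.20 for NF-kappaB targets. The cause of these shifts was not tested. Signal over background limits Saa3 and Mbl2 most, since each had 1 signal close to or under the brightest control spot.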

Other observations

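The workbook assigns each probe to classes of function and place, and the classes of the 4 genes gave values beyond the lists above. Among cell surface antigens, the class of Il1rl1, 6 of 52 probes were detected on both arrays, and the 5 beside Il1rl1 were higher, with a median log2 ratio of 0.14, where 53.2% of all probes detected on both arrays were higher. That median is smaller than the SD of 0.20 of the lambda spots, which is a scale for single spots and not for a median. Among other intracellular transducers, effectors and modulators, the class of Nfkbia, 5 were higher and 9 lower of the 14 such probes beside Nfkbia, with a median of -0.04, where 46.8% of all were lower. Among extracellular transport and carrier proteins, which hold Saa3 and Mbl2, 9 were higher and 10 lower of the 19 beside them, and the median was -0.08.

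Of genes next to the 4 along the chromosomes, few had signals to compare. Next to Nfkbia, Psma6, a proteasome subunit gene, had 44.6 and 46.1, under the threshold. Insm2, 2 genes away from Nfkbia, which encodes a zinc finger protein, had 107 and 130, a log2 ratio of 0.28. The muscle regulator gene Myod1, 5 genes away from Saa3, had 646 and 739, a log2 ratio of 0.19.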
